A study of Mus musculus with 6 samples.

Results

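The genes described here encode the NADPH oxidase of phagocytes and its relative Nox4. They are Cybb, Cyba, Ncf1, Ncf4, Rac2 and Nox4, and they were taken as the rows of the array whose annotation gives that single gene symbol, 1 probeset for each. All 6 were found among 19938 genes with 1 symbol, and all 6 passed the filter on dim values that left 11024 genes for testing. The RNA came from material that the labels name both as bead-purified adipose precursors (APs) and as perigonadal visceral adipose tissue (viWAT), taken from obese mice that had been on high-fat diet (HFD) for 8 weeks, starting at 6 weeks of age. One group, Hmox1f/f PdgfraCre, carried floxed alleles of Hmox1, the gene of heme oxygenase-1 (HO-1), together with Cre driven by the promoter of Pdgfra, a receptor gene of APs. The other group, Hmox1f/f, carried the same floxed alleles without Cre, so that an effect of Cre itself cannot be told apart from one of the deletion. There were 3 arrays in each group, PdgfraCre 1 to 3 and controls 4 to 6, and every array held RNA pooled from 2 mice. The methods describe the mice as males on a C57BL/6 J background.

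The oxidase of phagocytes is an enzyme complex that moves electrons from NADPH across a membrane onto oxygen and so makes superoxide. Its catalytic subunit gp91phox (Cybb) and the partner p22phox (Cyba) sit in the membrane, and cytosolic subunits, among them p47phox (Ncf1) and p40phox (Ncf4), join them on activation together with the small GTPase Rac2. In fat, macrophages are a main source of this complex. Nox4 also pairs with p22phox, but it needs no cytosolic subunit, releases mostly hydrogen peroxide and is found in stromal cells, preadipocytes among them. The study reported raised reactive oxygen species in cultured visceral APs that lack HO-1, measured in part with a probe of mitochondrial superoxide. It proposes a link to mitochondrial respiration. The arrays instead held RNA from obese mice on HFD, with adipocyte and macrophage markers beside those of APs. The comparison here asks only whether RNA of the oxidase genes differed between the genotypes. Whether these genes bear on the reactive oxygen species of APs was not tested.

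The bead protocol in the methods removes CD45 and CD31 positive cells, which include macrophages, mast cells and endothelial cells, and then selects for Sca-1. Which of the 2 named materials was hybridised could not be settled from the labels, and markers of several cell types were measured on all 6 arrays. Pdgfra, which marks APs, lay between 10.05 and 10.36 (log2 intensity). The adipokine gene Adipoq, a marker of mature adipocytes, lay between 12.74 and 13.10, and Adgre1, which encodes the macrophage antigen F4/80, between 11.08 and 11.92. Markers of adipocytes and macrophages were thus measured beside those of APs. Of 12 neutrophil markers, 10 did not pass the filter on dim values, with no single value above 6.32, and the 2 that passed were S100a8, whose groups overlapped, and Csf3r, which gave 7.02, 7.24 and 6.94 with Cre, against 7.36, 7.33 and 7.29 in the controls, with no overlap (-0.26 ± 0.09, SE). In bulk RNA of this kind, fewer cells of a type and less RNA per cell cannot be told apart. Hmox1 itself gave 11.25, 11.36 and 10.74 with Cre and 11.90, 11.63 and 12.32 without, and differed by -0.83 ± 0.23 (SE; adjusted p = 0.266 by limma). With arrayWeights this was -0.53, and with the mean of macrophage markers as a covariate it was -0.22 ± 0.40 (SE). The labels and methods give no culture, day or litter for an array, so p-values measure the spread between these arrays, and their small number sets the precision.

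Promoters from RefSeq (build GRCm38.p6) were at hand for 4 of the 6 genes, from 250 bases before to 50 bases after the start of the gene. They are shown because 3 of these genes were measured lower with Cre while Nox4 was not, and because Spi1, which encodes the myeloid transcription factor PU.1, is among the genes described below. Capitals mark the letters GAGGAA or, on the other strand, TTCCTC, the core that PU.1 binds, and GGGCGG or CCGCCC, the GC box. No marked motif overlapped another.
Cybb promoter, chrX:9469275-9469574, minus strand: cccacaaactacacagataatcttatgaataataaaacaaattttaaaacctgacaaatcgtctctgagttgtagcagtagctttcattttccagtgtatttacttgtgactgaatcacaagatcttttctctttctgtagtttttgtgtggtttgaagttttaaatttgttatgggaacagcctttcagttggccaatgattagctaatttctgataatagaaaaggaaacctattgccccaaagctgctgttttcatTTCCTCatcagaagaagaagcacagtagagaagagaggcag
Cyba promoter, chr8:122432891-122433190, minus strand: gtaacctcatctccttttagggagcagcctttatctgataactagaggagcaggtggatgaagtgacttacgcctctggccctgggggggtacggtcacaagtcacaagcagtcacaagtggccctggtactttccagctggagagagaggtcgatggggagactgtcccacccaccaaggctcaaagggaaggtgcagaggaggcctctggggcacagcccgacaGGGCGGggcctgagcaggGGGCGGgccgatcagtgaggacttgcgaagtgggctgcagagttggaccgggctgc
Ncf1 promoter, chr5:134229576-134229875, minus strand: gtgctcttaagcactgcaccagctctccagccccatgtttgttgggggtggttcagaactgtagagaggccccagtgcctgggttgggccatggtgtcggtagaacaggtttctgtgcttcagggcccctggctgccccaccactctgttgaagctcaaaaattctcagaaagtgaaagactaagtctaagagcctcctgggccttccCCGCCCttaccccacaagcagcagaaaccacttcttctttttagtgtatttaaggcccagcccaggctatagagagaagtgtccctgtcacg
Nox4 promoter, chr7:87246399-87246698, plus strand: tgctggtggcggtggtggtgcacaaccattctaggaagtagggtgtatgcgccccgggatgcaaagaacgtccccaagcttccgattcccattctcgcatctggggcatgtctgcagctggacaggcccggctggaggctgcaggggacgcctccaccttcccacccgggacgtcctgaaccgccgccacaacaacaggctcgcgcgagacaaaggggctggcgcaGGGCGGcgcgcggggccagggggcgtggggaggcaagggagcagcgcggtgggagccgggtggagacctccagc
The PU.1 core occurred once in the Cybb window, at base 260 of the window, and in none of the other 3, while 28.3% of all 32851 promoter windows held it. The GC box was in the windows of Cyba (2 copies), Ncf1 (1) and Nox4 (1), against 35.7% of all windows, and not in that of Cybb. The Nox4 window had a G and C content of 68.3% and that of Cybb 35.3%, on either side of the median of 52.7% over all windows. A match of letters is a description and not a binding site. Ncf4 and Rac2 are named only.

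The 5 genes of the phagocyte oxidase were all measured lower in Hmox1f/f PdgfraCre than in Hmox1f/f, with log2 differences from -0.78 to -0.33, and Nox4 was not. None of the 6 differences passed an adjusted p of 0.05 in limma, where 0 of all 11024 genes passed (0%). At an unadjusted p under 0.05, 5 of the 6 genes were lower and 0 were higher. Over all genes tested this share was 12.8% for lower and 3.03% for higher, or 15.8% in either direction (1406 genes lower and 334 higher, and 1010 and 610 after a further quantile normalization). The 3 values with Cre lay entirely below the 3 controls in 4 of the 6 genes (Cybb, Ncf1, Ncf4 and Rac2), which was so for 21.2% of all genes (27% with no overlap in either direction, 5.82% with the Cre arrays above). Of all genes tested, 6.57% were as low as Cybb or lower, 2.77% as low as Ncf4, 1.32% as low as Rac2, 1.22% as low as Cyba and 0.553% as low as Ncf1, and 9.74% were as high as Nox4 or higher. The median of all genes tested was -0.03, with 57.4% of them lower.

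Cybb, the membrane subunit that carries the electrons, gave 11.45, 11.79 and 11.54 with Cre and 11.98, 11.95 and 11.86 in the controls. The groups did not overlap, and array 2 with Cre came within 0.1 of the lowest control. The means were 11.60 ± 0.18 (SD, n = 3) and 11.93 ± 0.06 (SD, n = 3). Cybb thus differed by -0.33 ± 0.11 (SE), or 1.26-fold (95% confidence interval -0.59 to -0.08). Its p in limma was 0.0184 before adjustment and 0.266 after it.

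Cyba encodes p22phox, the partner that stabilises both gp91phox and Nox4 in the membrane. It gave 10.79, 11.27 and 10.33 with Cre and 11.35, 11.25 and 11.59 without. Array 2 with Cre lay above control array 5, so that the groups overlapped, and array 3 with Cre was the lowest of all. The means were 10.80 ± 0.47 (SD, n = 3) and 11.40 ± 0.17 (SD, n = 3). The difference of -0.60 ± 0.24 (SE; 95% interval -1.17 to -0.02) gave an adjusted p of 0.305 in limma. Leaving out PdgfraCre 3 made it -0.37, and leaving out PdgfraCre 2 made it -0.84.

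Ncf1, the organiser p47phox, whose phosphorylation starts the assembly, had the largest difference of the 6 genes. It gave 10.10, 10.36 and 9.70 with Cre, against 10.72, 10.63 and 11.15 in the controls. The groups lay apart, with array 3 the lowest on one side and array 6 the highest on the other. The means were 10.05 ± 0.33 (SD, n = 3) and 10.83 ± 0.28 (SD, n = 3), a difference of -0.78 ± 0.21 (SE), or 1.72-fold, with a 95% interval from -1.29 to -0.28. The unadjusted p was 0.00842 and the adjusted p 0.266 by limma.

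Ncf4 encodes p40phox, which binds a phosphoinositide of the phagosome membrane. It gave 8.37, 8.59 and 8.12 with Cre and 8.86, 8.71 and 8.91 without, with no overlap. Ncf4 differed by -0.46 ± 0.13 (SE; adjusted p = 0.266 by limma). Rac2, the GTPase of blood cells that completes the complex, gave 10.08, 10.33 and 9.65 with Cre and 10.62, 10.41 and 10.80 without. Here too the groups did not overlap, although array 2 with Cre came close to control array 5. Rac2 differed by -0.59 ± 0.19 (SE), or 1.51-fold (adjusted p = 0.267 by limma), and by -0.38 with arrayWeights.

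Nox4 stood apart from the other 5 genes. It gave 7.04, 7.33 and 7.41 with Cre, against 7.28, 7.11 and 6.75 in the controls, close to the filter at 7. The groups overlapped, and the lowest value was that of control array 6, the array highest in Cyba, Ncf1, Ncf4 and Rac2. With Cre the mean was 7.26 ± 0.19 (SD, n = 3), against 7.05 ± 0.27 (SD, n = 3) in the controls. Nox4 differed by 0.22 ± 0.16 (SE; 95% interval -0.18 to 0.61; adjusted p = 0.518 by limma). Leaving out control 6 made this 0.07, PdgfraCre 3 0.14, PdgfraCre 1 0.32 and control 4 0.33, and arrayWeights on all 6 arrays made it 0.07.

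**Figure D1:**
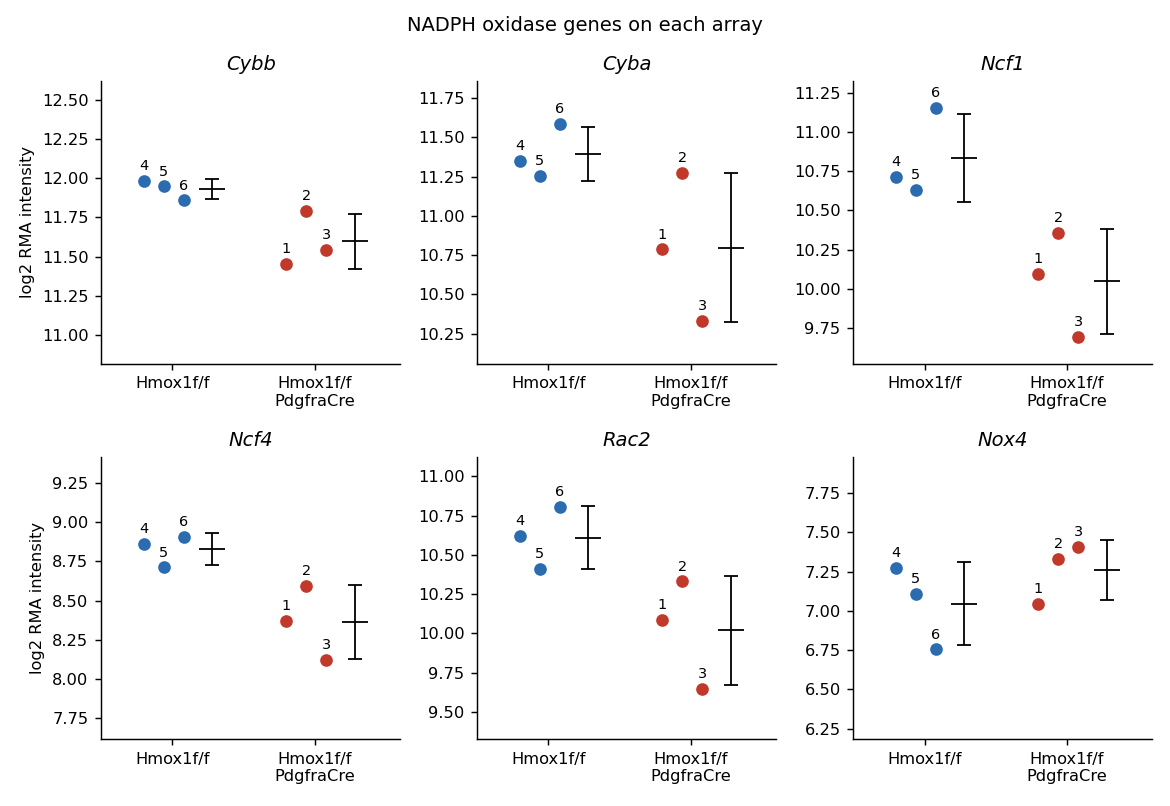
The vertical axis is log2 RMA intensity, spanning 1.8 units for every one of the 6 oxidase genes, with controls in blue, Cre arrays in red, array numbers beside the points, and the mean and SD of 3 arrays beside each group. The red points lie below the blue ones in Cybb, Ncf1, Ncf4 and Rac2, and the groups overlap in Cyba and Nox4.

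The count of 5 genes with an unadjusted p under 0.05 depended on single arrays, while all 5 were lower in every fit that left 1 array out. Leaving out PdgfraCre 1 left 3 (7.28% of all genes were lower at that p), PdgfraCre 2 left 5 (13.5%) and PdgfraCre 3 left 3 (10.9%). Leaving out control 4 left 2 (7.91%), control 5 left 3 (9.62%) and control 6 left 3 (7.4%). Without both PdgfraCre 1 and control 6, the array of each group with the highest mean over the epididymal genes found, it was 0, with 3.25% of all genes then called lower. The differences were then -0.30 for Cybb, -0.50 for Cyba, -0.65 for Ncf1, -0.43 for Ncf4, -0.53 for Rac2 and 0.18 for Nox4. These arrays stood apart in single epididymal genes. The lipocalin gene Lcn5 was at 12.21 on PdgfraCre 1 and between 5.39 and 5.86 on the other 5 arrays. Gpx5 was at 10.33 on control 6 and between 5.17 and 7.55 on the others. Spink8, however, was at 12.17 on PdgfraCre 1, 9.99 on PdgfraCre 3 and 9.33 on control 4, but at 5.32 on control 6. Adam7 was at 11.68 on PdgfraCre 1 and 8.93 on PdgfraCre 3. Epididymal signal was thus not confined to the 2 arrays left out.

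Whether the oxidase genes moved by different amounts was asked within arrays, as the difference between 2 genes on the same array compared between genotypes. With 3 arrays against 3 the exact two-sided permutation test cannot give a p below 0.1. Nox4 minus the mean of the other 5 genes, as deviations from the mean of both genotypes, was 0.17, 0.15 and 0.83 with Cre and -0.14, -0.19 and -0.82 without. The groups did not overlap, and the difference of 0.77 had the smallest p the exact permutation test allows, 0.1 (0.2 after Benjamini-Hochberg adjustment over 12 such comparisons). Nox4 was the only oxidase gene measured higher with Cre, which already fixed the sign of this difference. The difference was 0.45 for Cybb minus Ncf1, 0.18 for Cyba minus Ncf1, -0.32 for Ncf1 minus Ncf4 and -0.19 for Ncf1 minus Rac2. The groups did not overlap in these 4 pairs, each with an exact permutation p of 0.1 (adjusted p = 0.2). Ncf1 had the largest difference of the 5 genes, which already fixed it as the lower one in each of these pairs. For the other 6 pairs among the 5 genes the groups overlapped, with differences from -0.14 to 0.27 and exact permutation p-values from 0.3 to 0.9. These pairs share genes and arrays and are not independent of one another. In the exact permutation test a p of 0.1 only restates that the groups did not overlap. The share of other gene pairs without overlap was not computed. For single genes, the groups did not overlap in 27% of all genes tested.

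The 5 phagocyte genes also varied together from array to array. Across the 6 arrays, and as a description over genes that share the same RNA, Pearson's r between Ncf4 and Rac2 was 0.989, between Ncf1 and Rac2 0.981 and between Cyba and Rac2 0.980. After each genotype's mean was taken away these were 0.982, 0.957 and 0.966. Cybb followed the others less closely, with r between 0.776 (Ncf1) and 0.860 (Ncf4). After the genotype means were taken away, r for Cybb was between 0.241 (Ncf1) and 0.534 (Cyba). Its lowest array was Hmox1f/f PdgfraCre 1, while the other 4 were lowest on Hmox1f/f PdgfraCre 3. Nox4 had r between -0.701 (Ncf1) and -0.137 (Cybb) with the 5 genes. After the genotype means were taken away, these ran from -0.608 (Ncf1) to 0.583 (Cybb).

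The tested genes most like each member over the 6 arrays, by Pearson's r, were named by rank alone. They are the highest among 11024 genes tested, and over so few arrays values near 1 can come from that selection alone. Cybb was most like the interleukin-10 receptor gene Il10ra (r = 0.995), Plod3 (0.995) and Ralb (0.990). Cyba was most like the G protein gene Gna15 (0.999), Cap1 (0.998) and the histone gene H2ac15 (0.998), and Ncf1 was most like Kcnab2, Rab5c (both 1.00) and the phosphatase gene Ptpn7 (0.998). Ncf4 was nearest to the cathepsin genes Ctsd (1.00) and Ctsk (0.999) and to Hgsnat (0.999). Rac2 was nearest to the G protein gene Gnai2 (0.999), Prr13 (0.999) and B4galt5 (0.999), and Nox4 to Stmn2 (0.991), Wars2 (0.986) and Zfp708 (0.986). In a ranking over all genes tested, with predicted genes, clones and small RNAs kept, Rac2 was at place 87 for Ncf4 and at place 125 for Cyba. Nox4 was at place 7210 for Cybb.

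Proteins that load, switch on or support the phagocyte oxidase were next. Of 12 such genes 10 were found and tested, and Pak1 and Prdx6 were not analysed here. At an unadjusted p under 0.05, 6 of the 10 were lower and 0 higher, against 12.8% and 3.03% of all genes. Of the 10, 0 passed the adjusted threshold in limma. The median of the 10 was -0.37.

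The 6 were Hvcn1, Vav1, Arhgdib, Prkcb, Prkcd and Cybc1. Hvcn1, the proton channel that balances the charge moved by the oxidase, gave 9.11, 9.50 and 8.74 with Cre and 9.76, 9.52 and 10.13 without, which differ by -0.69 ± 0.23 (SE; adjusted p = 0.270 by limma) and by -0.44 with arrayWeights. Vav1, an exchange factor that loads Rac with GTP in blood cells, gave 8.25, 8.79 and 8.52 with Cre and 9.04, 9.05 and 9.21 without (-0.58 ± 0.15, SE). In both genes the groups did not overlap, and 21.2% of all genes were likewise lower without overlap. Arhgdib, a GDP dissociation inhibitor of blood cells, differed by -0.53 ± 0.11 (SE). Of the protein kinase C genes in the list, whose products can phosphorylate p47phox, Prkcb differed by -0.54 ± 0.14 (SE), Prkcd by -0.39 ± 0.14 (SE) and Prkca by 0.08 ± 0.14 (SE). Cybc1, the chaperone needed for the gp91phox and p22phox pair, gave 8.10, 8.42 and 8.13 with Cre and 8.52, 8.55 and 8.64 without, a difference of -0.35 ± 0.11 (SE).

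The remaining partners, Rac1, Rap1a, Poldip2 and Prkca, gave small differences. Rac1, the widely expressed relative of Rac2, gave 11.77, 11.94 and 11.83 with Cre and 11.87, 11.87 and 11.88 without, so that the groups overlapped. Its difference was -0.03 ± 0.07 (SE), with a 95% interval from -0.20 to 0.15, and it turned to 0.04 after a further quantile normalization. Within arrays Rac2 minus Rac1 differed by -0.56, with no overlap and an exact permutation p of 0.1 (adjusted p = 0.2). The differences of Rac2 and Rac1 taken singly already fixed this sign, and the p only restates the lack of overlap. The differences were -0.03 for Poldip2, a partner of Nox4, and 0.07 for the GTPase gene Rap1a, with SEs of 0.07 and 0.15. Rap1a turned to -0.13 and Prkca to -0.06 with arrayWeights.

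**Figure D2:**
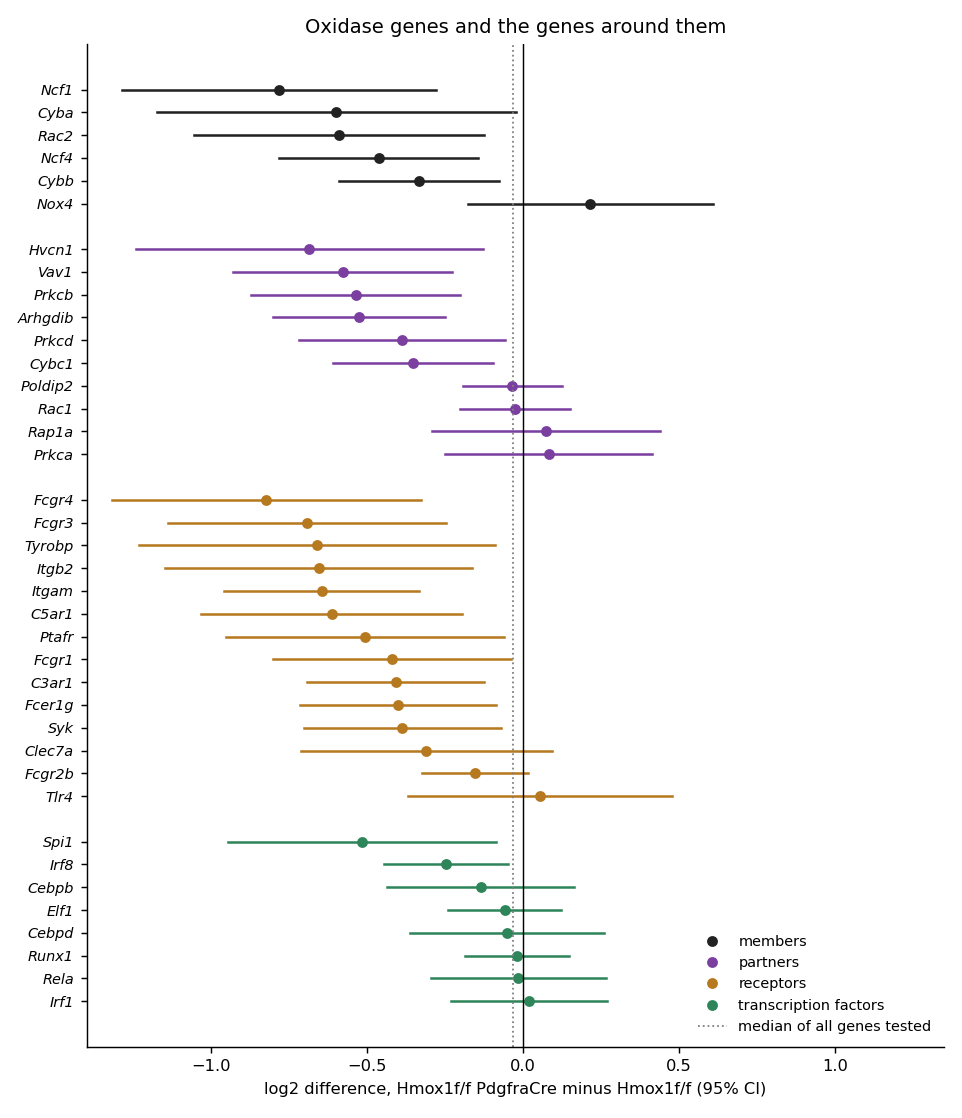
Log2 difference, Hmox1f/f PdgfraCre minus Hmox1f/f (horizontal axis), with its 95% confidence interval by limma, for the 6 oxidase genes and the tested genes of 3 lists around them. The intervals of Ncf1, Cyba, Rac2, Ncf4 and Cybb lie below 0, those of Nox4, Rac1, Rap1a, Prkca and Poldip2 include it, and the dotted line marks the median of all genes tested, -0.03.

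The other members of the oxidase family were near the bottom of the range of the array. Of 8 genes, 7 (Nox1, Nox3, Noxo1, Noxa1, Duox1, Duox2 and Duoxa2) did not pass the filter, with single values between 5.00 and 6.51. The exception was Duoxa1, a maturation factor for the dual oxidases, which gave 8.70, 8.70 and 8.70 with Cre and 8.68, 8.78 and 8.66 without, a difference of 0.00 ± 0.07 (SE).

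Receptors that trigger the oxidase on phagocytes were lower in the same arrays. Of 16 genes 14 were found and tested, with a median of -0.46. At an unadjusted p under 0.05, 11 were lower and 0 higher, against 12.8% and 3.03% of all genes. Of the 14, 0 passed the adjusted threshold in limma. The integrin chain Itgam, part of the complement receptor, gave 10.67, 11.04 and 10.72 with Cre and 11.46, 11.31 and 11.60 without, a difference of -0.65 ± 0.13 (SE). The IgG receptors Fcgr4 and Fcgr3 differed by -0.82 ± 0.20 (SE) and -0.69 ± 0.18 (SE), and the complement C5a receptor C5ar1 by -0.61 ± 0.17 (SE). In these 4 genes the groups did not overlap, and 21.2% of all genes were likewise lower without overlap.

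Transcription factors known from myeloid cells were mostly near 0. Of 10 genes 8 were tested, with a median of -0.06. At an unadjusted p under 0.05, 2 were lower and 0 higher, against 12.8% and 3.03% of all genes. The 2 were the myeloid factors Spi1, which gave 10.76, 10.98 and 10.35 with Cre and 11.11, 11.10 and 11.42 without (-0.52 ± 0.18, SE, and -0.34 without PdgfraCre 3), and Irf8 (-0.25 ± 0.08, SE). The groups did not overlap in either (21.2% of all genes were lower without overlap), and 0 passed the adjusted threshold in limma.

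**Figure D3:**
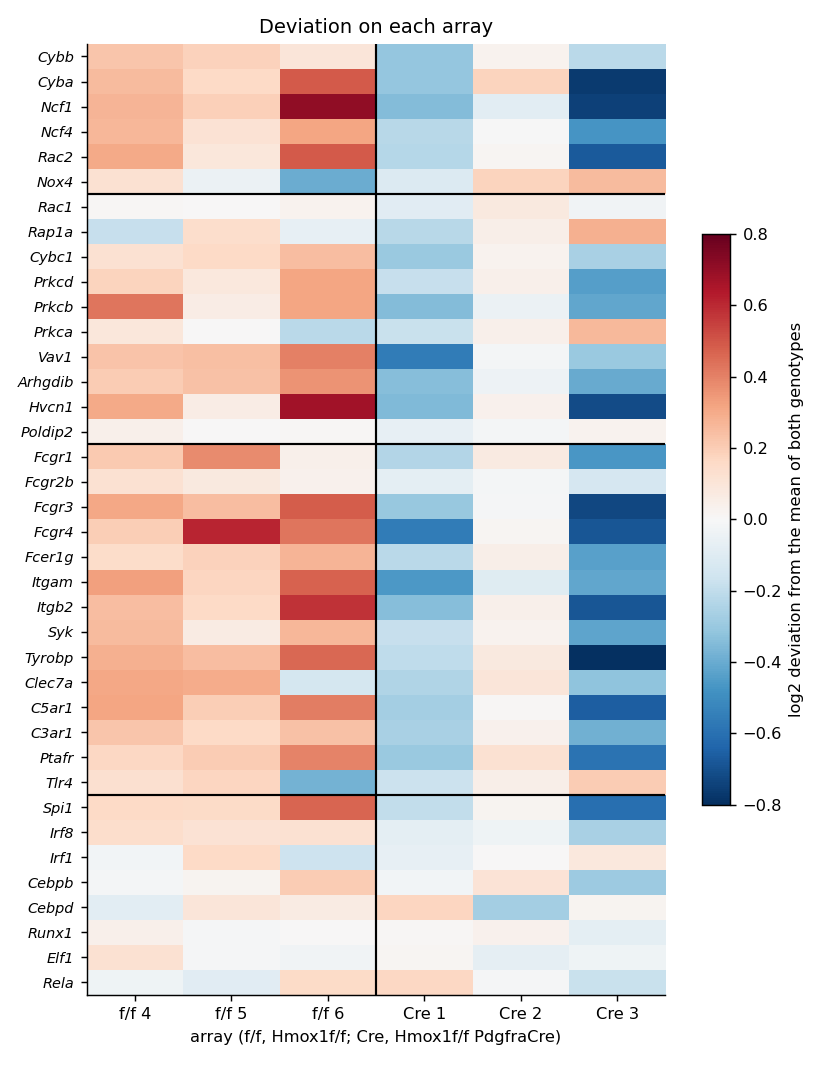
Log2 deviation of each gene from the mean of both genotypes (colour, red above and blue below) on the 3 Hmox1f/f arrays (left) and the 3 Hmox1f/f PdgfraCre arrays (right), with rows grouped into the 6 oxidase genes, their partners, receptors and transcription factors. Array 3 with Cre is lowest and control array 6 highest in Cyba, Ncf1, Ncf4 and Rac2, array 2 with Cre lies near 0, and Nox4 is lowest on control array 6.

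Most macrophage markers were measured lower with Cre on the same arrays. Of 18 markers 17 were tested, with a median of -0.38. Of these 16 were lower (57.4% of all genes), 9 of them at an unadjusted p under 0.05 (12.8% of all genes). Cd14 differed by -0.68 ± 0.13 (SE), Csf1r by -0.42 ± 0.10 (SE), Adgre1 by -0.57 ± 0.14 (SE) and the complement gene C1qa by -0.58 ± 0.14 (SE). The fall was not uniform over the list. Cd163 (-0.02 ± 0.12, SE), Mertk (-0.06 ± 0.13, SE), Fcrls (-0.06 ± 0.13, SE) and Cd86 (0.01 ± 0.17, SE) were near 0, with overlapping groups. The mean of the 18 markers was 10.02, 10.27 and 9.89 with Cre and 10.51, 10.43 and 10.47 without. As a description over 6 arrays that share their RNA, r with this mean was 0.938 for Cybb, 0.942 for Cyba, 0.927 for Ncf1, 0.982 for Ncf4, 0.945 for Rac2 and -0.410 for Nox4. After the genotype means were taken away, r in the same order was 0.776, 0.924, 0.732, 0.936, 0.854 and 0.045.

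When this mean was a covariate in the fit, the difference between the genotypes was -0.04 ± 0.17 (SE) for Cybb, 0.35 ± 0.23 (SE) for Cyba and -0.14 ± 0.33 (SE) for Ncf1. It was 0.02 ± 0.15 (SE) for Ncf4, 0.10 ± 0.25 (SE) for Rac2 and 0.24 ± 0.36 (SE) for Nox4. None of the 6 genes then had an unadjusted p under 0.05 in limma, and 1.76% of all genes were called lower. The covariate itself did not overlap between the genotypes, and the median SE of all genes was 0.18 with it and 0.10 without, so that these values have wide intervals (-0.97 to 0.70 for Ncf1).

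**Figure D4:**
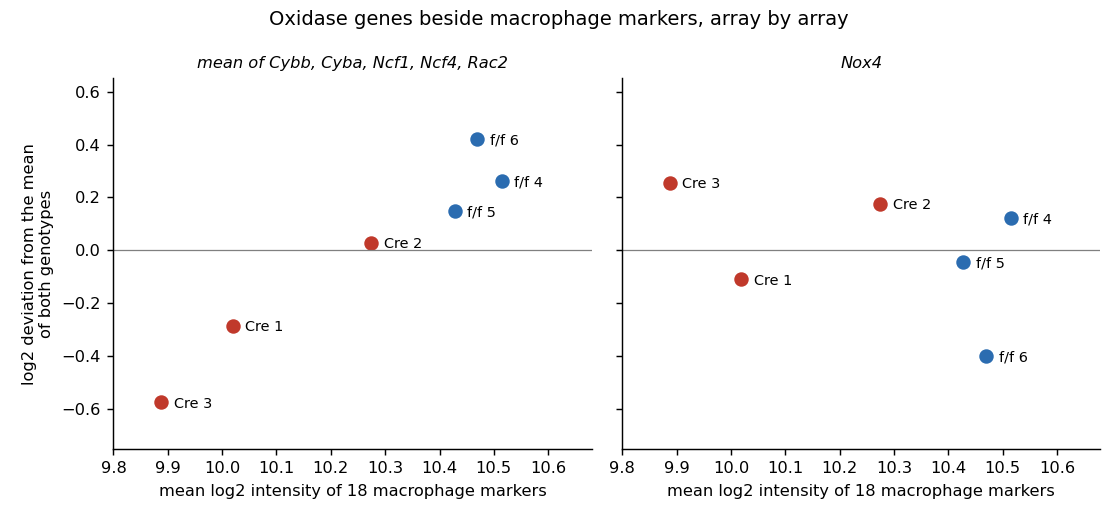
Mean log2 deviation of Cybb, Cyba, Ncf1, Ncf4 and Rac2 (left) and of Nox4 (right) on each array, against the mean log2 intensity of 18 macrophage markers on the same array, with controls in blue and Cre arrays in red. The left points run from -0.57 at a marker mean of 9.89 (array 3 with Cre) to 0.42 at 10.47 (control array 6), and the Nox4 points lie between -0.40 and 0.26.

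Other cell markers differed too, and their part in the values of the oxidase genes was not tested. Markers of mature adipocytes had means from 12.70 to 12.86 with Cre and from 12.45 to 12.65 without. Those of endothelial cells had means from 9.74 to 9.94 and from 9.25 to 9.63, and all 8 were higher, with a median of 0.37. Of 8 markers of mural cells of vessels, 6 were higher and 2 lower, with a median of 0.12 and overlapping means. All 6 mesothelial markers were lower (57.4% of all genes), with a median of -0.19 and overlapping means. The means of adipocyte, endothelial and mural markers were highest on PdgfraCre 3 and lowest on control 6, as was Nox4. Whether Nox4 followed any of these cell types was not tested. Of 6 mast cell markers 5 were tested, and all 5 were lower (57.4% of all genes), with a median of -0.87. Their means ran from 7.50 to 8.13 with Cre and from 8.48 to 8.77 without. The mean of AP markers overlapped, from 9.84 to 9.89 with Cre and from 9.86 to 10.03 without. Of 10 tested, 5 were lower and 5 higher. Pi16 (-0.30 ± 0.07, SE) and Thy1 (-0.45 ± 0.17, SE) were lower at an unadjusted p under 0.05, against 12.8% of all genes. Pi16 and Pdgfra (-0.17 ± 0.08, SE) were lower without overlap, which was so for 21.2% of all genes. Enzymes that remove superoxide and peroxide were mixed, with a median of 0.00. Of 11 tested, 4 were lower and 0 higher at an unadjusted p under 0.05 (12.8% and 3.03% of all genes). The 4 were Prdx1 (-0.59 ± 0.16, SE), Prdx2 (-0.31 ± 0.08, SE), Gpx1 (-0.25 ± 0.10, SE, and -0.16 without PdgfraCre 3) and Prdx4 (-0.20 ± 0.08, SE), while the superoxide dismutase genes did not reach that p. Genes around TGF-beta, a factor that raises Nox4 in many stromal cells, had a median of 0.00. At that p 1 of 10 tested, the target gene Tgfbi (-0.35 ± 0.07, SE), was lower, a share no larger than the 12.8% of all genes.

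**Figure D5:**
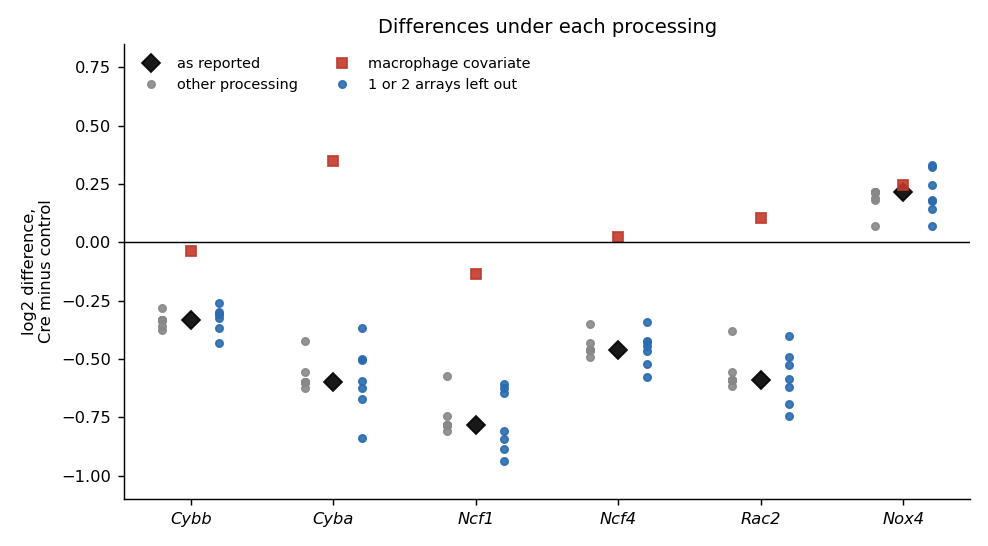
Log2 difference, Hmox1f/f PdgfraCre minus Hmox1f/f (vertical axis), of each oxidase gene as reported (black), under other processing (grey), with 1 or 2 arrays left out (blue) and with the mean of the macrophage markers as a covariate (red). The 5 phagocyte genes stay below 0 except with the covariate, where Cyba (0.35), Rac2 (0.10) and Ncf4 (0.02) lie above it, and Nox4 stays above 0 throughout.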

How the data were processed

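Total RNA (200 ng per array, each a pool of 2 mice) was measured on Affymetrix mouse arrays. The authors deposited 1 intensity per probeset and array on a linear scale, whole numbers from 8 to 20701, produced by RMA, which corrects background, normalizes by quantiles and summarises each probeset, in Expression Console 1.1, as the submitters' processing notes give it. RMA compresses differences of dim probesets and hides a shift shared by most genes. Some items are not reported here. The genome build behind the array values is not given in the sources used here.

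Log2 values were taken. Of 35556 probesets 21789 carried 1 symbol, 1621 several and 12146 were unnamed here. Of several probesets of a gene, the one brightest on average across the 6 arrays stood for it (19938 genes). Genotypes were compared with limma 3.58.1 in R 4.3.3 (lmFit and eBayes over all 19938 genes, two-sided, genotype as the only term), with Benjamini-Hochberg adjustment across the 11024 genes above a log2 intensity of 7 in at least 3 arrays. Comparisons within arrays used exact permutation. Permutations ran in Python 3.11.15 and plots in matplotlib 3.10.9.

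The oxidase genes, 6 lists of related genes, 11 marker lists and all tests were chosen with earlier results of these data known. The text names the 6 oxidase genes, Hmox1, Pdgfra, the partners found, up to 4 genes with the smallest p of each other list described, and the 3 genes most like each oxidase gene, leaving out predicted genes, clones and small RNAs. Adipoq, S100a8, Csf3r, Lcn5, Gpx5, Spink8, Adam7, Pi16, Thy1 and genes named only as below the filter or not analysed were chosen after their values were seen. The same holds for Cd163, Mertk, Fcrls and Cd86. Alternatives left out the filter, set it at 6 or used that of the methods (which also keeps only the more variable genes by mean absolute deviation), added quantile normalization or median centring, used trend and robust eBayes or arrayWeights, averaged probesets, took the mean of macrophage markers as a covariate, or left out arrays. Moderation over the tested genes alone was added after seeing the data.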

Additional observations from a re-analysis of the deposited data

How the results depend on the processing

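The directions of the 6 oxidase genes held under 16 of 17 other settings, and 0 of the 6 passed an adjusted p of 0.05 in limma under any (lowest adjusted p 0.0897, for Ncf1 under the filter of the methods). The exception in direction was the macrophage covariate, with 0.35 for Cyba, 0.024 for Ncf4 and 0.10 for Rac2, 2 oxidase genes lower and 0 with an unadjusted p under 0.05. With 1 array left out the differences ranged from -0.43 to -0.26 for Cybb, -0.84 to -0.37 for Cyba, -0.94 to -0.61 for Ncf1, -0.58 to -0.34 for Ncf4, -0.75 to -0.40 for Rac2 and 0.069 to 0.33 for Nox4, and the count of lower oxidase genes with an unadjusted p under 0.05 from 2 to 5 (0 without Hmox1f/f PdgfraCre 1 and Hmox1f/f 6). Moderation over the genes tested, chosen after seeing the data, changed none of these directions or counts.

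Over all genes, 1406 were lower and 334 higher at an unadjusted p under 0.05, and 0 passed the adjusted threshold in limma in every setting. The lower count was 873 under the filter of the methods, 194 with the covariate, 358 without Hmox1f/f PdgfraCre 1 and Hmox1f/f 6, and 803 to 1490 with 1 array left out. The higher count was 610 after a further quantile normalization (with 1010 lower), 515 with arrayWeights, 161 with the covariate, 90 without those 2 arrays, and 145 to 616 with 1 array left out.

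With the covariate the list medians were -0.051 for partners, 0.060 for receptors, 0.018 for transcription factors and -0.11 for TGF-beta genes. Under the filter of the methods, which tests fewer genes, they were -0.53 for partners and -0.31 for enzymes that remove peroxide. With arrayWeights they were -0.091 for the removing enzymes and -0.075 for TGF-beta genes. With 1 array left out they ranged from -0.48 to -0.29 for partners, -0.63 to -0.33 for receptors, -0.13 to -0.041 for transcription factors, -0.057 to 0.034 for the removing enzymes, -0.054 to 0.044 for TGF-beta genes and -0.50 to -0.29 for macrophage markers. Among single genes the sign turned with the covariate for Rac1 (0.099), Rap1a (-0.15), Prkcd (0.10), Prkca (-0.049), Hvcn1 (0.10), Fcgr3 (0.0032), C5ar1 (0.057), Spi1 (0.076) and Gpx1 (0.054). It turned after a further quantile normalization for Rac1 (0.043) and Duoxa1 (0.028), with arrayWeights for Rap1a (-0.13) and Prkca (-0.055), and for Rac1 without Hmox1f/f PdgfraCre 1 and Hmox1f/f 6 (0.016). With 1 array left out Rac1 ranged from -0.073 to 0.010, Rap1a from -0.051 to 0.20, Prkca from -0.029 to 0.19 and Duoxa1 from -0.028 to 0.033. The cause of these turns was not tested. No paired analysis was possible because the groups share no replicate numbers. Nox4 lay close to the filter at 7, and 1 of its 6 values was below it.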
